A study of Homo sapiens with 6 samples.

Results

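The Kruppel-like factor (KLF) genes described here are 10 genes, KLF2, KLF3, KLF4, KLF5, KLF6, KLF7, KLF9, KLF10, KLF11 and KLF13. They were chosen by name from the KLF family as genes known to respond to inhibitors of histone deacetylases. The rule held no value of these libraries, but earlier results of these data were known when it was made. All 10 were among the 47470 genes listed in the count files, and all 10 passed the filter on low counts, as did 15298 genes in all. The RNA came from HEK293T, an immortal line of human embryonic kidney origin with the large T antigen of SV40, grown in 2 conditions. VPA-treated cells were kept for 1 day in 1 mM VPA (valproic acid), which inhibits histone deacetylases, and untreated cells received no drug. Each condition had 3 libraries. No source used here says whether these came from separate cultures, so the p-values measure the spread between these libraries, which may be technical.

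KLF proteins are transcription factors that bind CACCC and GC-rich sequences through zinc fingers at their C-terminal end, next to the related SP factors. Their N-terminal parts differ and recruit different partners. KLF3 binds the corepressor CtBP, a group that includes KLF2, KLF4, KLF5, KLF6 and KLF7 activates genes and can bind acetyltransferases, and KLF9, KLF10, KLF11 and KLF13 bind Sin3, a corepressor that carries histone deacetylases, so the family holds genes on both sides of histone acetylation.

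In VPA-treated cells KLF7 and KLF4 were higher, KLF11, KLF3, KLF9 and KLF13 were lower, and KLF2, KLF5, KLF6 and KLF10 did not pass the test. The changes were modest. KLF7 rose 1.60-fold (95% interval 1.41 to 1.82) and KLF11 fell to 0.686 of its untreated level (0.623 to 0.754), and these were the largest changes in each direction among the 10. Genes were called up-regulated or down-regulated at an adjusted p (edgeR quasi-likelihood test, Benjamini-Hochberg adjustment over all 15298 genes) under 0.05 together with a log2 fold change of 1 or more in either direction, the thresholds of the study. Of the 10 genes 0 were up-regulated and 0 down-regulated, against 12.0% and 0.503% of all tested genes. The counts were also 0 and 0 with DESeq2, although 7 of the 10 had an unadjusted p under 0.05 in edgeR. With the adjusted p alone, 2 of the 10 were higher and 4 lower, where 32.9% of all tested genes were higher and 30.0% lower. All 3 VPA-treated libraries lay above all 3 untreated libraries for 2 of the 10 and below them for 5, against 34.8% and 31.0% of tested genes. The median log2 fold change was -0.12 over the 10 and 0.01 over all tested genes.

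**Figure D1:**
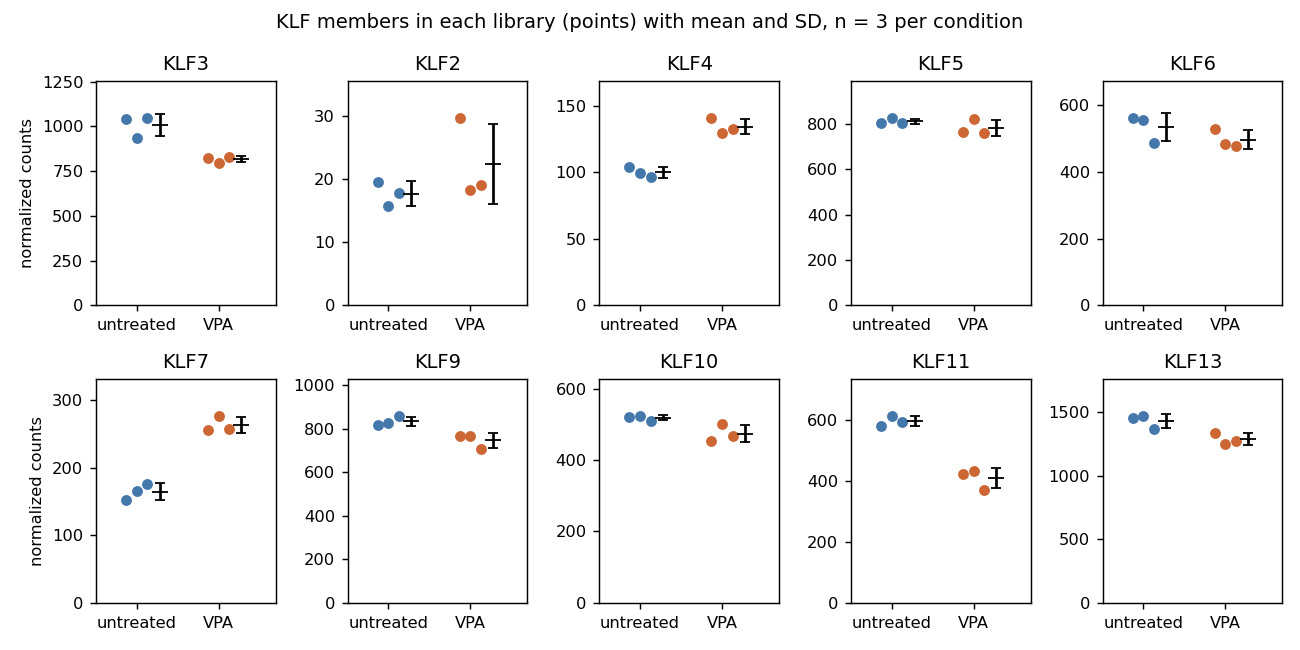
Normalized counts (y axis, from 0) of each of the 10 KLF genes in the 3 untreated and 3 VPA-treated libraries (points), with the mean and SD of each condition beside them. KLF4 and KLF7 lie higher in every VPA-treated library, KLF3, KLF9, KLF10, KLF11 and KLF13 lie lower in every one, and the conditions overlap for KLF2, KLF5 and KLF6.

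The libraries held between 18622267 and 18828495 counts on genes, so depth differed little between them. All 6 genes of a list for the line (VIM, KRT8, KRT18, PAX2, LHX1 and NEFM) were counted, with summed counts of 15767 to 16033 in untreated and 19500 to 20661 in VPA-treated libraries. VIM was lower with VPA and the other 5 were higher.

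Values below are normalized counts, the deposited counts divided by TMM-scaled library sizes and set to the mean library, and fold changes are VPA-treated over untreated. In bulk RNA, fewer cells with a transcript and less of it per cell cannot be told apart.

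KLF3 (4:38664199-38701517 on GRCh38.p14, plus strand) is a repressor of erythroid and fat cell genes that works through CtBP. Its untreated libraries had 1043, 934 and 1045 normalized counts, and 825, 798 and 830 were measured with VPA. Every VPA-treated library was below every untreated library, and the VPA-treated values were the tighter set. The level fell from 1007 ± 63.4 to 818 ± 17.5 (SD, n = 3), a log2 fold change of -0.30 (SE 0.055, adjusted p = 6.51e-05, edgeR). The antisense gene KLF3-AS1, which overlaps it by 265 exonic bases on the opposite strand, had 34 counts over all 6 libraries against 5456 for KLF3.

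KLF7 (2:207074137-207173851, minus strand), the ubiquitous KLF that is known for its part in neuron growth, had the largest rise of the 10. Its untreated libraries had 152, 165 and 176 normalized counts and its VPA-treated libraries 256, 276 and 257. No VPA-treated library came near the untreated range. The level rose from 164 ± 12.1 to 263 ± 11.4 (SD, n = 3), with a log2 fold change of 0.68 (SE 0.088, adjusted p = 9.08e-07, edgeR). KLF7 shares 67 exonic bases with the antisense gene MYOSLID. The library protocol of the study was strand-specific, but whether the counting used strand is not given in the sources used here. Counts in such stretches therefore cannot be assigned to either gene.

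KLF4 (9:107484852-107489769, minus strand) is one of the factors used to reprogram cells to pluripotency, and both activates and represses genes. Its untreated libraries had 104, 99.4 and 96.5 normalized counts and its VPA-treated libraries 141, 130 and 133. The conditions were separate in every library. The level rose from 100.1 ± 4.04 to 135 ± 5.58 (SD, n = 3), 1.34-fold (1.15 to 1.57), with a log2 fold change of 0.43 (SE 0.11, adjusted p = 0.00179, edgeR). The rise rests on 709 counts over the 6 libraries. An unnamed antisense gene overlaps 201 exonic bases of KLF4. The 250 bases before the KLF4 start site, from RefSeq on GRCh38.p14 at chr9:107489770-107490019 on the minus strand, are printed here as the start of a gene that rose, with capitals for the 4 motifs searched on both strands (CACCC, the KLF box; GGGCGG, the GC box; CCAAT; and TATAA):
KLF4: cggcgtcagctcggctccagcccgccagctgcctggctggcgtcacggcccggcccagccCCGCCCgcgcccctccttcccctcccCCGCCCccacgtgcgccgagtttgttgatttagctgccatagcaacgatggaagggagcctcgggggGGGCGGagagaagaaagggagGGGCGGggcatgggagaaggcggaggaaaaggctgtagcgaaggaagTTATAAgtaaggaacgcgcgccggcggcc
This stretch held the GC box 4 times over both strands and no KLF box. The TATAA motif was counted 2 times because, with the T before it, it reads the same on both strands.

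KLF2 (19:16324826-16328685, plus strand), the flow-responsive KLF of endothelium and quiescent T cells, was barely counted in this line. Its raw counts were 19, 15 and 17 in the untreated and 31, 19 and 20 in the VPA-treated libraries, 121 in all. A single VPA-treated library, replicate 1, was high, and the other 2 were close to the untreated values. The normalized level was 17.7 ± 1.99 untreated and 22.4 ± 6.35 VPA-treated (SD, n = 3), with a log2 fold change of 0.33 (95% interval -0.22 to 0.88, adjusted p = 0.281, edgeR), and a difference of either sign within that interval was not detectable at this depth. Without VPA-treated replicate 1 the log2 fold change was 0.08 (adjusted p = 0.844, the highest of a range from 0.138 over 14 alternatives).

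Markers of cells in which KLF2 and KLF4 are high in the body were counted alongside. The 5 endothelial markers (PECAM1, CDH5, KDR, TIE1 and EMCN) had 11 to 18 summed counts per untreated library and 129 to 160 per VPA-treated library. Nearly all of these came from KDR, the VEGF receptor gene, which rose from 13.9 ± 3.26 to 134 ± 16.9 normalized counts (SD, n = 3; log2 fold change 3.26, adjusted p = 2.65e-12, edgeR). PECAM1, CDH5, TIE1 and EMCN, which define endothelium more narrowly, had 5, 7, 2 and 1 counts over all libraries, and CDH5 and EMCN had 0 in each untreated library. Among blood markers, PTPRC, the pan-leukocyte CD45 gene, had 0 counts in each untreated library and 5, 4 and 3 in the VPA-treated libraries, and CD3E, SPI1 and ITGAM had 1, 7 and 5 in all. The part of such markers in the KLF4 rise was not tested.

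KLF5 (13:73054976-73077538, plus strand), a growth-linked factor of epithelia, had 806, 825 and 805 normalized counts untreated and 764, 824 and 762 with VPA. The conditions overlapped, since VPA-treated replicate 2 was as high as the untreated libraries. The log2 fold change was -0.05 (95% interval -0.16 to 0.06, adjusted p = 0.413, edgeR), an interval that spans changes from 0.893-fold to 1.04-fold. KLF6 (10:3775996-3785209, minus strand), a factor linked to growth arrest and injury repair, had 561, 556 and 487 untreated and 528, 485 and 478 with VPA, again overlapping. Its log2 fold change was -0.10 (95% interval -0.25 to 0.04, adjusted p = 0.186, edgeR). The call turned on a single library, since without untreated replicate 3, the lowest untreated value, KLF6 was lower at -0.17 (adjusted p = 0.0341, the lowest of a range up to 0.755 over 14 alternatives). Among the 5 activator genes, 2 thus rose and 3 did not pass the test.

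KLF11 (2:10043550-10054836, plus strand), a TGF-beta inducible repressor that is also linked to beta cell function, had the smallest adjusted p of the 10. Its untreated libraries had 582, 614 and 596 normalized counts and its VPA-treated libraries 424, 432 and 372. The highest VPA-treated value was well under the lowest untreated value. The level fell from 597 ± 15.8 to 409 ± 32.6 (SD, n = 3), with a log2 fold change of -0.54 (SE 0.066, adjusted p = 3.26e-07, edgeR). The neighbouring transcript KLF11-DT had 106 counts over the 6 libraries, 14 to 23 in each, and an unnamed antisense gene overlaps 416 exonic bases of KLF11.

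KLF10, the other TGF-beta inducible member of the 10, was closer to its untreated level. It had 521, 523 and 510 normalized counts untreated and 454, 499 and 467 with VPA. Each VPA-treated library was below each untreated library, yet the gene did not pass. The log2 fold change was -0.13 (SE 0.062, unadjusted p = 0.0481, adjusted p = 0.073, edgeR). KLF10 was called lower under 3 of 14 alternatives. Its adjusted p was then 0.0492 for DESeq2 size factors, 0.0378 with the replicate block and 0.0442 without VPA-treated replicate 2, in a range from 0.0378 to 0.984 over the 14. Within each library the count of KLF11 was 1.15 ± 0.031 times that of KLF10 untreated and 0.866 ± 0.069 times with VPA (SD, n = 3), with no overlap between the conditions, a comparison that does not depend on the scaling of the libraries.

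KLF9 (9:70384604-70414657, minus strand), a repressor induced by thyroid hormone and glucocorticoids, and KLF13 (15:31326835-31435665, plus strand), known as a regulator of CCL5 in T cells, fell by about the same small amount. KLF9 had 818, 825 and 858 normalized counts untreated and 768, 766 and 707 with VPA, and KLF13 had 1455, 1468 and 1363 untreated and 1338, 1248 and 1270 with VPA. For both, every VPA-treated library was the lower. KLF9 fell to 0.896 of its level (0.828 to 0.969; log2 fold change -0.16, SE 0.055, adjusted p = 0.0153, edgeR). KLF13 fell to 0.900 (0.839 to 0.965; log2 fold change -0.15, SE 0.048, adjusted p = 0.00914, edgeR). Both calls were lost under 3 of 14 alternatives. The adjusted p of KLF9 was 0.144 with upper quartile scaling, 0.685 with library totals and 0.0955 without VPA-treated replicate 3 (range 0.00309 to 0.685). For KLF13 it was 0.124, 0.729 and, without VPA-treated replicate 2, 0.0532 (range 5.01e-04 to 0.729). Of their neighbours, KLF9-DT had 26 counts in all.

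KLF9 and KLF13 start in DNA of very different make-up, and the 250 bases before their start sites are printed to show this. They come from RefSeq on GRCh38.p14, at chr9:70414658-70414907 on the minus strand and chr15:31326585-31326834 on the plus strand, with the same 4 motifs in capitals:
KLF9: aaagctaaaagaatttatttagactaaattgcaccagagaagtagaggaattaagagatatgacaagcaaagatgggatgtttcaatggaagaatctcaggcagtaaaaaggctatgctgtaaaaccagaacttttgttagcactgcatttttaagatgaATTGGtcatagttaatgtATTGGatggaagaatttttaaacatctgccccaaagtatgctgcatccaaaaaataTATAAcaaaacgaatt
KLF13: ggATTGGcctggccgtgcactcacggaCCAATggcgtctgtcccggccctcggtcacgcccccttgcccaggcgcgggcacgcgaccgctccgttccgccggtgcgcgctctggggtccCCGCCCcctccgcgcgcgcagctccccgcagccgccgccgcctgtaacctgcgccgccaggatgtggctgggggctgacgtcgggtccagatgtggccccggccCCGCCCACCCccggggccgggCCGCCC
The KLF9 stretch was 32.4% G or C and held the CCAAT motif 2 times, both on the opposite strand, the TATAA motif 1 time, and neither the KLF box nor the GC box. The KLF13 stretch was 78.8% G or C and held the GC box 3 times, the CCAAT motif 2 times, with 1 on each strand, and the KLF box 1 time. That KLF box shares its opening base with a GC box of the opposite strand, so both are in the same run of capitals.

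RefSeq promoter windows of 300 bases (250 before to 50 after a start) were matched for 8 of the 10 genes, and those of KLF3 and KLF10 were not. Over 17017 such windows of 11739 tested genes the median G or C content was 65%. The KLF box was in 63.9% of these windows, the GC box in 65.1%, the CCAAT motif in 34.1% and the TATAA motif in 12.1%. The main-start window of KLF9 had 32.7% G or C, higher than 0.517% of the windows only, and that of KLF2 had 80.7%, higher than 96.7%. Those of KLF4, KLF5, KLF6 and KLF13 had 69.0%, 71.3%, 70.7% and 78.3%, and that of KLF7 56.7%. KLF11 had 2 windows, neither at its main start, with 77.3% and 75.3% G or C and the GC box 2 and 7 times. For the genes that rose, the KLF4 window held the GC box and the TATAA motif. The main-start window of KLF7 held none of the 4 motifs but the KLF box, 2 times. Among KLF7 windows at other starts, that with 70.0% G or C held the GC box 4 times and the KLF box 1 time. That with 42.7% held the KLF box and the CCAAT motif 1 time each, and that with 43.0% the CCAAT motif 1 time. A motif match describes these letters and is not evidence of binding.

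**Figure D2:**
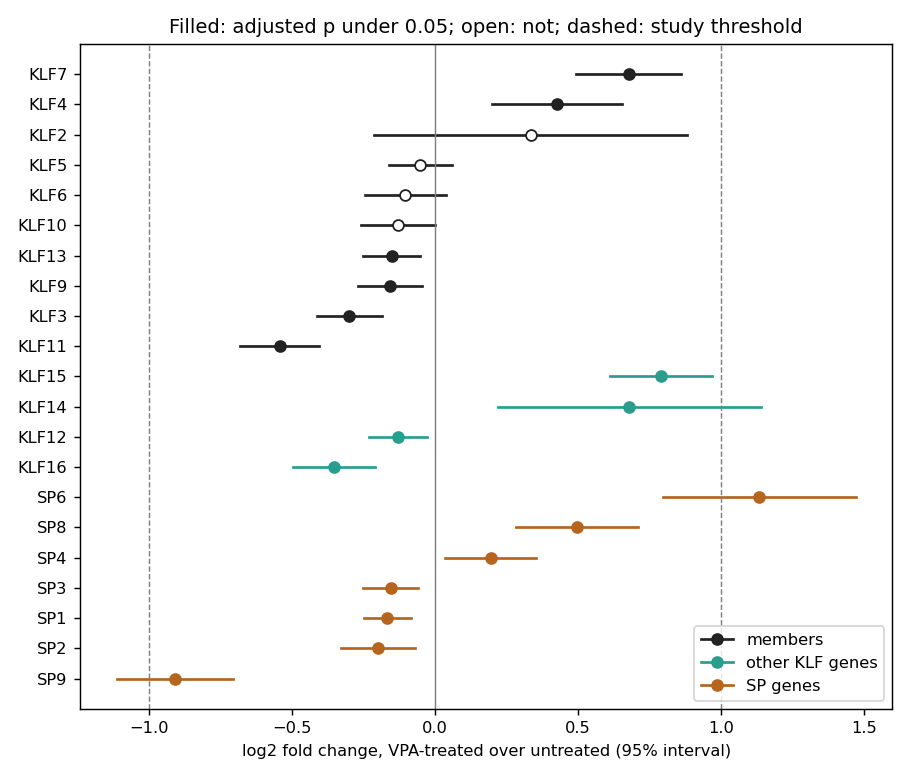
Log2 fold change (x axis, VPA-treated over untreated) with its 95% interval for the 10 KLF genes, the 4 other tested KLF genes and the 7 tested SP genes, filled where the adjusted p was under 0.05. The 10 KLF genes lie between -0.54 (KLF11) and 0.68 (KLF7), inside the dashed lines at -1 and 1, and SP6 alone lies above 1, at 1.13.

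Of 8 other KLF genes 4 were tested, 2 of them higher and 2 lower (32.9% and 30.0% of all tested genes), with a median log2 fold change of 0.27. KLF15, a metabolic regulator of muscle, liver and kidney, had 211, 208 and 202 normalized counts untreated and 397, 322 and 356 with VPA. No library overlapped, and the log2 fold change of 0.79 (SE 0.086, adjusted p = 6.43e-08, edgeR) was the largest of any KLF gene tested. KLF14, an intronless relative of KLF16, rose from 19.1 ± 1.17 to 30.7 ± 2.89 (SD, n = 3; log2 fold change 0.68, adjusted p = 0.0109, edgeR), a call that DESeq2 did not make (adjusted p = 0.136, the highest of a range from 0.00343). KLF16, a Sin3-binding member, fell from 963 ± 92.0 to 754 ± 60.3 (SD, n = 3; log2 fold change -0.35, adjusted p = 1.47e-04, edgeR). KLF12, a CtBP-binding repressor, fell from 1256 ± 48.3 to 1147 ± 29.0 (SD, n = 3; log2 fold change -0.13, adjusted p = 0.0233, edgeR), and this call held under 8 of 14 alternatives, with the sign turning to 0.00094 under library totals. It was lost without untreated replicate 3, VPA-treated replicate 1 or VPA-treated replicate 2 (adjusted p = 0.0961, 0.0772 and 0.0516, in a range from 0.0033 to 0.987).

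KLF1, the erythroid member, had 17 counts in all, KLF17 6 and KLF18 1, and none of these was tested. KLF8 was listed at 0 in each library, as were all 1437 listed genes of its chromosome, X, so these files give no level for it.

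The SP genes have products that share the KLF zinc fingers. All 7 tested passed, 3 higher and 4 lower (32.9% and 30.0% of all tested genes), with a median log2 fold change of -0.16. The 4 lower became 2 with upper quartile scaling and 1 with library totals. SP6, known from tooth and skin development, was up-regulated, from 38.2 ± 3.32 to 84.0 ± 12.7 normalized counts (SD, n = 3; log2 fold change 1.13, adjusted p = 3.06e-06, edgeR). SP9, a forebrain interneuron factor, fell from 319 ± 41.7 to 169 ± 10.8 (log2 fold change -0.91, adjusted p = 4.89e-08, edgeR), and SP8 rose by a log2 fold change of 0.50 (adjusted p = 2.49e-04, edgeR). The broadly used SP1, SP2 and SP3 fell by 0.17, 0.20 and 0.16 on the log2 scale, and SP4 rose by 0.19. These 4 calls were less stable, since SP1, SP2 and SP3 did not pass with library totals (adjusted p = 0.438, 0.372 and 0.665, the highest over the alternatives of each), SP2 and SP3 did not pass with upper quartile scaling (0.0637 and 0.0998), SP2 did not pass without untreated replicate 1 (0.0692), and SP4 passed under 8 of 14 alternatives only (range 0.00126 to 0.203), failing without untreated replicate 2 (0.198), without untreated replicate 3 (0.0643) and without VPA-treated replicates 1 (0.0747) and 2 (0.0979). SP5 had 40 counts and SP7 3, too few for the filter, with SP5 at 1, 4 and 1 untreated and 7, 13 and 14 with VPA.

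**Figure D3:**
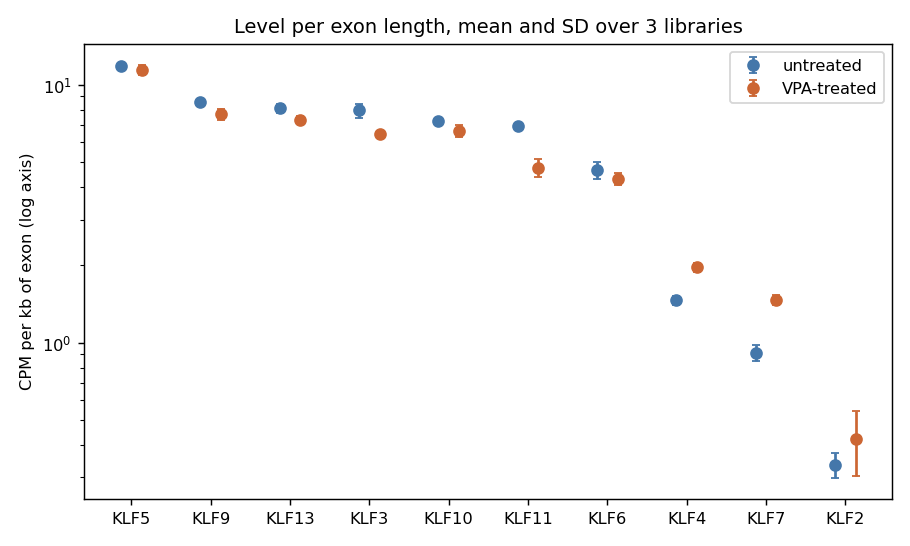
CPM (counts scaled to a fixed library total) per kb of exon (y axis, log scale), mean and SD over 3 libraries per condition, for the 10 KLF genes in the order of their untreated level. KLF5 is at 11.8 and KLF2 at 0.336 in untreated cells, and the largest gap between neighbours on the log axis is from KLF6 (4.65) to KLF4 (1.46).

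Levels were compared between genes per length, as CPM per kb of GENCODE 44 exon, with CPM taken from the TMM-normalized counts. In untreated cells the order was KLF5 (11.8 ± 0.164; SD, n = 3), KLF9 (8.56 ± 0.218), KLF13 (8.09 ± 0.324), KLF3 (7.94 ± 0.500), KLF10 (7.24 ± 0.101), KLF11 (6.94 ± 0.184), KLF6 (4.65 ± 0.361), KLF4 (1.46 ± 0.059), KLF7 (0.913 ± 0.067) and KLF2 (0.336 ± 0.038). Only KLF13 and KLF3, and KLF10 and KLF11, overlapped as neighbours. In VPA-treated cells KLF10 (6.62 ± 0.329) and KLF3 (6.45 ± 0.138) changed places, with overlapping libraries, and KLF11 came down to 4.76 ± 0.379, where it overlapped KLF6 (4.33 ± 0.237). KLF5 stayed at the top (11.4 ± 0.508) and KLF4 (1.96 ± 0.081), KLF7 (1.46 ± 0.063) and KLF2 (0.424 ± 0.120) at the bottom, in the same order.

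The shares of the 10 genes in their summed raw counts moved with these changes. These shares are not corrected for gene length, and the other KLF genes are not in the sum. KLF7 made up 2.74 ± 0.226% of the counts summed over the 10 genes in untreated libraries and 4.84 ± 0.210% in VPA-treated libraries (SD, n = 3). KLF4 went from 1.66 ± 0.053% to 2.48 ± 0.092%, KLF11 from 9.93 ± 0.297% to 7.53 ± 0.450% and KLF3 from 16.7 ± 1.10% to 15.1 ± 0.566%. KLF13 held the largest share in both, 23.8 ± 0.765% and 23.7 ± 0.764%, and KLF9 was at 13.9 ± 0.480% and 13.7 ± 0.345%. The count of KLF7 relative to that of KLF11 was 0.261, 0.269 and 0.296 in untreated and 0.603, 0.639 and 0.692 in VPA-treated libraries, while that of KLF9 relative to KLF13 was 0.584 ± 0.039 and 0.581 ± 0.029 (SD, n = 3). Because these are ratios within a library, they show unequal change of KLF7 and KLF11, and a difference between KLF9 and KLF13 below the spread between libraries. Summed over roles, the 4 Sin3-binding genes had 3377, 3430 and 3327 normalized counts untreated and 2984, 2946 and 2816 with VPA, and the 5 activators had 1643, 1662 and 1583 untreated and 1719, 1733 and 1650 with VPA. With this TMM scaling the Sin3-binding sums did not overlap and the activator sums did. Sums by role depend on the scaling, and other scalings were not compared for them. Sums over the 10 genes were 6014 ± 55.2 and 5434 ± 122 normalized counts, but as CPM of the raw library totals they overlapped, at 302 to 312 untreated and 296 to 309 with VPA.

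**Figure D4:**
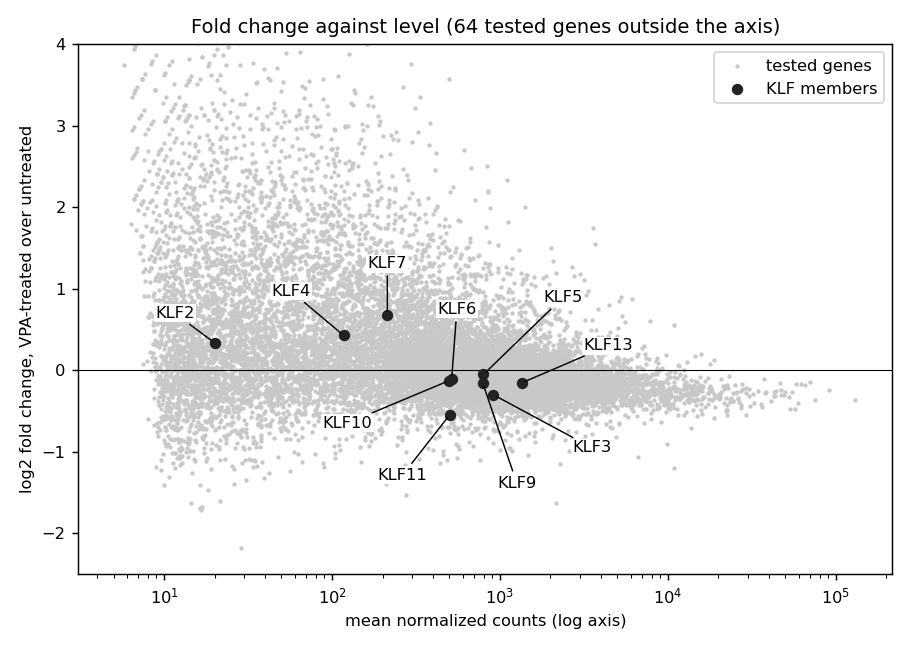
Log2 fold change (y axis, VPA-treated over untreated) against mean normalized counts over the 6 libraries (x axis, log scale) for the tested genes (grey) and the 10 KLF genes (black), with 64 tested genes outside the axis. The 3 KLF genes with the lowest counts (KLF2, KLF4 and KLF7) lie above 0 and the other 7 below it, in a cloud that itself leans down towards high counts.

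The sign of the change followed the counts of the genes. The 3 least counted members, KLF2, KLF4 and KLF7, had positive log2 fold changes and the other 7 negative ones. The tested genes as a whole, split by mean count into 4 bins of equal size, leaned the same way. In the bin with mean counts of 78.9 to 444, which holds KLF4 and KLF7, 48.8% were higher and 16.1% lower with VPA, and in the bin from 444 to 1244, which holds KLF3, KLF5, KLF6, KLF9, KLF10 and KLF11, 27.1% were higher and 36.9% lower. KLF2 was in the lowest bin (42.7% higher, 6.75% lower) and KLF13 in the highest (13.2% higher, 60.3% lower). Each of the 6 called genes moved in the direction more frequent among the calls of its bin.

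**Figure D5:**
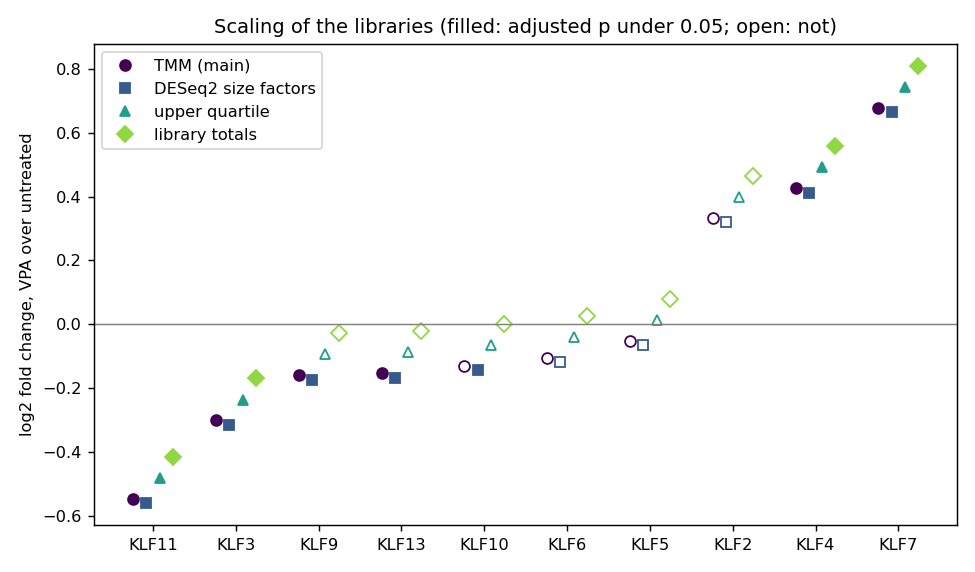
Log2 fold change (y axis) of the 10 KLF genes under 4 ways of scaling the libraries, filled where the adjusted p was under 0.05. KLF11, KLF3, KLF4 and KLF7 keep sign and call under all 4, KLF9 and KLF13 lose theirs with upper quartile or library totals, and KLF5, KLF6 and KLF10 come above 0 with library totals.

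Small changes depended on how the libraries were scaled. TMM factors were 0.950 to 0.965 in untreated and 1.05 in VPA-treated libraries, so the scaling itself differed between conditions. With TMM 5037 genes were higher and 4591 lower, with upper quartile scaling 5810 and 3413, and with library totals 6713 and 2372. Library totals moved the median of all tested genes to 0.14 on the log2 scale. Relative to that shift KLF7 (0.81) and KLF4 (0.56) were still above it, and KLF11 (-0.41) and KLF3 (-0.17, adjusted p = 0.0139, the highest of a range from 5.5e-08) below 0. KLF5 (0.08), KLF6 (0.03) and KLF10 (0.0015) then had positive values that did not pass the test, and KLF9 (-0.03) and KLF13 (-0.02) were no longer called. KLF3, KLF4, KLF7 and KLF11 kept direction and call under all 14 alternatives.

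Genes that act with the KLF proteins were compared in the same fit. Of 12 corepressor, acetyltransferase and ubiquitin ligase genes, 0 were higher and 7 lower (edgeR), with a median log2 fold change of -0.16, and 0 were higher with DESeq2 too, as by an unadjusted p under 0.05. Over all tested genes 30.0% were lower, but 8 of the 12 lay in the bin with the highest mean counts, where 60.3% of genes were lower, so the count of 7 was near the share for genes of that level. It was 4 with upper quartile scaling and 2 with library totals. KAT2A, a histone acetyltransferase, fell from 3974 ± 94.4 to 2189 ± 77.0 normalized counts (SD, n = 3; log2 fold change -0.86, adjusted p = 1.27e-13, edgeR). CREBBP, the acetyltransferase CBP, fell by 0.52 on the log2 scale (adjusted p = 5.23e-10, edgeR) and its paralogue EP300 by 0.22 (adjusted p = 8.31e-05, edgeR). The call for EP300 was lost with library totals only (adjusted p = 0.0676, the highest of a range from 1.17e-08). CTBP2, SIN3B, WWP1, FBXW7 and ITCH did not pass, and are named here after their values were seen.

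Genes upstream of the KLF genes were called about as often as other genes. Of 16 genes from the ERK5-MEF2 and TGF-beta pathways, nuclear receptors and transcription factors, 6 (37.5%) were higher and 5 (31.2%) lower, against 32.9% and 30.0% of all tested genes, with a median log2 fold change of 0.06. The count of higher genes was 3 with DESeq2 and 9 with library totals. TGFB1, the ligand of the pathway that induces KLF10 and KLF11 in many cells, was up-regulated, from 410 ± 13.6 to 1090 ± 21.1 (SD, n = 3; log2 fold change 1.41, adjusted p = 5.18e-15, edgeR). Its receptor gene TGFBR2 rose by a log2 fold change of 0.67 (adjusted p = 1.17e-08, edgeR), and SMAD4, the shared partner of the pathway's SMAD proteins, fell by 0.39 (adjusted p = 5.09e-07, edgeR). Named after their values were seen, SMAD2, MAPK7, NR3C1 and FOXO1 were the other genes that fell, and MEF2A, MEF2C, TGFBR1, SMAD3 and THRB did not pass.

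Reported target genes of KLF proteins were called higher more often than lower. Of 13 listed, 10 were tested, with 7 higher, 4 of them up-regulated, 2 lower and a median log2 fold change of 0.64, where 32.9% of all tested genes were higher, 12.0% up-regulated and 30.0% lower. By mean count, 3 of the 10 lay in the lowest bin, where 42.7% of genes were higher, 29.3% up-regulated and 6.75% lower. Another 4 lay in the next bin, where 48.8% were higher, 15.6% up-regulated and 16.1% lower. Of the rest, 1 lay in the bin from 444 to 1244 (27.1% higher, 2.43% up-regulated, 36.9% lower). The other 2 lay in the highest bin (13.2% higher, 0.627% up-regulated, 60.3% lower). CDH1, the E-cadherin gene, which KLF4 is known to activate, was up-regulated from 168 ± 17.7 to 636 ± 30.3 (SD, n = 3; log2 fold change 1.92, adjusted p = 1.08e-14, edgeR). S1PR1, a KLF2 target that controls T cell exit from lymph nodes, was up-regulated with a log2 fold change of 1.67 (adjusted p = 6.28e-10, edgeR). LGALS3, a galectin gene repressed by KLF3, was up-regulated with a log2 fold change of 1.19 (adjusted p = 1.04e-07, edgeR). ODC1, the polyamine synthesis enzyme repressed by KLF4, fell by 0.59 on the log2 scale (adjusted p = 4.17e-10, edgeR). SMAD7, the other gene that fell, and THBD, which did not pass, are named after their values were seen. NOS3 and ENG had 27 and 55 counts and were not tested, and CCL5 had 0. The part of the KLF genes in the changes of these targets was not tested.

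The genes most like KLF11 across the libraries, by Pearson r of log2 CPM over the 6 libraries, were TGIF1 (r = 0.999), LOC101929234 (0.999) and COX10 (0.999). TGIF1 is a SMAD-binding repressor and COX10 makes heme A for cytochrome c oxidase. All 3 fell, by 0.51, 0.85 and 0.29 on the log2 scale (adjusted p = 4.25e-05, 5.33e-05 and 1.19e-04, edgeR). The 6 points are 3 libraries of each condition, so r largely measures the difference between the conditions that these genes share with KLF11.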

How the data were processed

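Reads were filtered by the authors with SOAPnuke and mapped with STAR (2.7.10b in the submitters' notes) to hg38, and raw counts per gene from HTSeq (2.0.1 in those notes) were deposited. Annotation and strand setting are not given in the sources used here. The 5 summary lines of the counting were left out (no gene 6.80% to 7.69% of the reads listed, ambiguous 1.97% to 2.10%, not unique 2.81% to 2.92%).

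Sample labels gave the conditions. Tests on the counts used edgeR 4.0.16 with R 4.3.3 (TMM, filterByExpr with a count minimum of 10, robust quasi-likelihood fit on condition alone, prior count 0.125, Benjamini-Hochberg adjustment over all tested genes), while the study used DESeq2. Calls used an adjusted p under 0.05, with or without a log2 fold change of at least 1. SEs are log2 fold changes over the root of F, and 95% intervals use the t distribution with the fit's degrees of freedom. Normalized counts are per mean library (18707134 counts). The common biological coefficient of variation was 3.83%, and intervals cover the spread between libraries at this depth. The fit was tested on simulated counts. Replicates of a condition differed by more than counting noise (chi-square per gene 1.62 to 4.63), and each was treated as 1 sample. That spread does not show whether they came from separate cultures.

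The 10 genes and the lists of cofactors, regulators, targets and markers were chosen with earlier results of these data known, from general knowledge. Named besides the 10 were all other KLF and SP genes with counts, the cofactors, regulators and targets past both thresholds or among the 3 with the smallest adjusted p of their list, transcripts named after the 10, and the 3 genes most like the one with the smallest adjusted p; others are marked where they are named. Coordinates and promoter sequences are from RefSeq on GRCh38.p14, and exon lengths and overlaps from GENCODE 44. Alternatives were DESeq2 1.42.0, other scalings and filters, glmTreat, a prior count of 2, a replicate block, and each library left out in turn. Values of some genes of these lists are not reported here. ChIP-seq, Hi-C and imaging data were not analysed here.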

Additional observations from a re-analysis of the deposited data

How the results depend on the processing

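Of the 503 comparisons of a named gene's log2 fold change with an alternative, 469 kept direction and side of the threshold, 25 lost the call, 4 gained it and 5 changed sign. The 5 were KLF5 with upper quartile scaling (0.013) and, with library totals, KLF5 (0.08), KLF6 (0.027), KLF10 (0.0015) and KLF12 (0.00094). The counts of the 10 genes past both thresholds stayed at 0 and 0 under all alternatives run. With upper quartile scaling 2 of the 10 were lower in place of 4, with 1 of the other KLF genes lower, 2 SP genes and 4 cofactors. With library totals 2 of the 10 were lower, 1 other KLF gene, 1 SP gene, 2 cofactors and 3 regulators, and 1 cofactor was higher. DESeq2 called 1 other KLF gene and 3 regulators higher. With at least 10 counts in every library 1 other KLF gene was lower. Leaving out a library gave 1 to 2 other KLF genes lower and 3 to 6 regulators higher, the fewest without VPA-treated replicate 1. The lower counts come with a scaling that moves the median of all tested genes up, and for the others the cause was not tested.

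Deviations from the condition means were weakly correlated between libraries of the same replicate number (r = 0.14, 0.021 and 0.080 for numbers 1, 2 and 3). Between unlike numbers r was -0.11 to 0.031. Whether libraries of the same number share a batch is not given by the labels and was not tested. The replicate block gave 2 of the 10 higher and 5 lower, KLF10 being added, and 5357 genes higher and 5100 lower in all. Depth limits KLF2 (121 counts) and KLF14 (151), and 3 libraries per condition limit all small changes.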
